A study of Mus musculus with 6 samples.

Results

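Sp5, Sp6 and Sp8 are zinc-finger transcription factors of the Sp family, and their transcripts were compared between tissues of the embryonic mouse jaw, the lower molar germ and oral tissue without teeth. All 3 genes were measured, by 5 probes among 34885 probes that carry 1 gene symbol (19057 genes). They were chosen by name with their values in this comparison known, so their differences between the tissues are given as a description and without a test. The RNA came from embryos of the outbred CD-1 mouse stock at embryonic day 13.5, when the lower molar is an epithelial bud surrounded by condensing mesenchyme. No embryo carried a stated mutation or treatment. Of 6 Illumina bead arrays, 3 are titled tooth germ (mandibular molar) and 3 are titled oral tissue (mandibular tissue with neither tooth nor bone). Each array holds RNA pooled from several embryos, and arrays of the same number share a litter, so the arrays form 3 pairs with n = 3 per tissue. Both tissues mix epithelium, mesenchyme and other cells.

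The sample labels conflict: by title and description 3 arrays are tooth germ, and by source name and tissue field those same arrays are the oral tissue. The arrays are named here by title, and every difference changes sign if the titles are wrong. Msx1, a homeobox gene of dental mesenchyme, and Shh, the hedgehog ligand of dental epithelium, rose in the arrays titled tooth germ by 1.47 and 0.78 on the log2 scale (limma, adjusted p = 6.25e-05 and 0.00218). The muscle genes Myod1 and Acta1 fell by 1.47 and 1.94 (limma, adjusted p = 1.56e-05 and 7.71e-05). Over all 19057 genes 1107 passed the limma test at an adjusted p under 0.05, which is 5.81% of those tested, with 456 (2.39%) higher and 651 (3.42%) lower in titled tooth germ. With litter as a block 1693 genes (8.88%) passed. Leaving out litter 1 gave 549 calls, leaving out litter 3 gave 668 and leaving out tooth germ library 2 gave 734. The median difference over all genes was 0.0026. Signals are on the deposited log2 scale, on which the median of all probes was 7.01, and precision is limited by the number of arrays.

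Sp factors bind GC-rich DNA through a block of C2H2 zinc fingers shared with the Klf factors. Sp5, Sp6, Sp8 and their relative Sp9 are among the members of the family with restricted embryonic expression. Sp5 is a direct transcriptional target of Wnt and beta-catenin signalling and feeds back on Wnt target genes. Sp6, also called epiprofin, is made in dental epithelium, where mouse embryos lacking it form extra teeth without proper enamel. Sp6 and Sp8 act together in the apical ectodermal ridge of the limb bud, and Sp8 is also needed for growth of the face and for neurons of the olfactory bulb.

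The DNA before the Sp5 start site is shown because Sp5 had the largest difference of the 3 genes and is a known Wnt target, and that of Sp9 is shown because Sp9 moved the other way. Both are the 250 bases before the annotated start in RefSeq (GRCm38.p6), on the plus strand, Sp5 at chr2:70474673-70474922 and Sp9 at chr2:73271676-73271925. Capitals mark the letters CTTTG on either strand, the core of the sequence that Tcf and Lef factors bind, which was picked as the motif to mark after the sequences had been seen.

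Sp5: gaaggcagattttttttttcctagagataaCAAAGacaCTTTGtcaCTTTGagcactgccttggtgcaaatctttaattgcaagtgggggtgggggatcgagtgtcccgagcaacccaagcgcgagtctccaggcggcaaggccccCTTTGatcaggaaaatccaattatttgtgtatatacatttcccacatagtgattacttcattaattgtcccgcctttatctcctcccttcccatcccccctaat
Sp9: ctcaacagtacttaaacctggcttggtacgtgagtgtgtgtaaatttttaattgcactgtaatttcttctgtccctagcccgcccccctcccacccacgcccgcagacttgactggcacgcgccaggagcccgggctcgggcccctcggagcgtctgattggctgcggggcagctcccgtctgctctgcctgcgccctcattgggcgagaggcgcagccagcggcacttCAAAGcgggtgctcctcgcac

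The Sp5 stretch held 4 such cores, 3 of them within the bases 31 to 51 and the fourth at bases 147 to 151, counted from the 5′ end. Of 32851 RefSeq promoter windows in the table, 254 (0.773%) held 4 or more in the same 250 bases, and the median was 0. Since the motif was picked after the Sp5 and Sp9 sequences had been seen, nothing is read from that share. The Sp9 stretch held 1, at bases 230 to 234, a number reached by 48.6% of the windows. A longer form of the Tcf and Lef motif, CTTTGAA or CTTTGAT, contains the core and was searched on both strands of the window from 250 bases before to 50 after each start. Sp5 held CTTTGAT 1 time and Sp9 held CTTTGAA 1 time, and 8.65% of all windows held at least 1 of these. Sp8 has 3 annotated starts in that table, and the window of 1 of them held CTTTGAA. The Sp5 window had no GC box (GGGCGG), which 35.7% of all windows held, and the windows of Sp1, Sp3 and Sp4, the broadly expressed members, held between 2 and 5. The Sp9 window and 1 of the 3 Sp8 windows held 1 each. The windows of Sp5, Sp8 and Sp9 held 45%, between 43% and 61%, and 63.7% G and C, against 61.7% for Sp1, 66.7% and 76.3% for both Sp3 windows, 78.7% for Sp4 and a median of 52.7%. These matches are letters in a window and show no binding.

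Sp5 stood higher in the arrays titled tooth germ. Its single probe read 8.63, 8.16 and 8.63 in oral tissue libraries 1 to 3 and 10.54, 10.57 and 10.16 in tooth germ libraries 1 to 3. The groups did not overlap, with a gap of 1.52 between the lowest tooth germ array and the highest oral tissue array. The means were 10.42 ± 0.23 in tooth germ and 8.48 ± 0.27 in oral tissue (SD, n = 3 each), which differ by 1.95 on the log2 scale (SE 0.142, 95% interval 1.64 to 2.26) or 3.85-fold. Only 3 of 19057 genes had a larger positive difference. The pairs differed by 1.90, 2.41 and 1.52 in litters 1, 2 and 3, so the litters spread by 0.45 (SD of the pair differences). Litter 2 held both the lowest oral tissue value and the highest tooth germ value, and tooth germ library 3 was the lowest of its group. In bulk tissue of this kind, more cells of a type and more RNA per cell cannot be told apart.

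Sp6 was also higher in titled tooth germ, at 2 of its 3 probes. The main probe, the one with the highest mean, read 7.21, 7.28 and 7.15 in oral tissue and 8.12, 8.23 and 7.97 in tooth germ. All tooth germ arrays lay above all oral tissue arrays, by at least 0.69, and the pairs differed by 0.91, 0.95 and 0.81. The means were 8.11 ± 0.13 and 7.21 ± 0.064 (SD, n = 3), a log2 difference of 0.89 (SE 0.0765, 95% interval 0.72 to 1.06) or 1.86-fold. The oral tissue values lay close to the median of all probes, where the log2 scale may understate a fold.

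The other Sp6 probes did not repeat every feature of the main one. The next probe read 7.16, 7.22 and 7.14 in oral tissue and 7.89, 8.06 and 8.14 in tooth germ, a log2 difference of 0.86 (SE 0.0678). Its pair differences of 0.73, 0.84 and 1.00 put litter 3 highest, while the main probe put litter 3 lowest, so the order of the litters for Sp6 was not shared between probes. The dimmest Sp6 probe read 7.10, 6.94 and 7.02 in oral tissue and 7.15, 7.04 and 7.19 in tooth germ. Its groups overlapped, the difference was 0.11 (SE 0.052, 95% interval -0.0058 to 0.22), and its 6 values lay between 6.94 and 7.19. With the mean of all 3 probes in place of the main probe, the Sp6 difference was 0.62.

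Sp8 showed no difference that these arrays could resolve. Its only probe read 6.89, 6.99 and 6.90 in oral tissue and 6.97, 6.90 and 6.93 in tooth germ. The groups overlapped fully, and the pair differences of 0.086, -0.085 and 0.027 had no common sign. The means were 6.93 ± 0.036 in tooth germ and 6.93 ± 0.055 in oral tissue (SD, n = 3 each), which differ by 0.0095 on the log2 scale with a 95% interval of -0.069 to 0.088. Only 39.5% of all probes on the array had a lower mean than this one, and all 6 readings lay below the median of all probes. At such a signal no difference in Sp8 RNA was resolved, and whether this probe could detect one was not tested. An equal Sp8 level in the tissues is not shown.

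**Figure D1:**
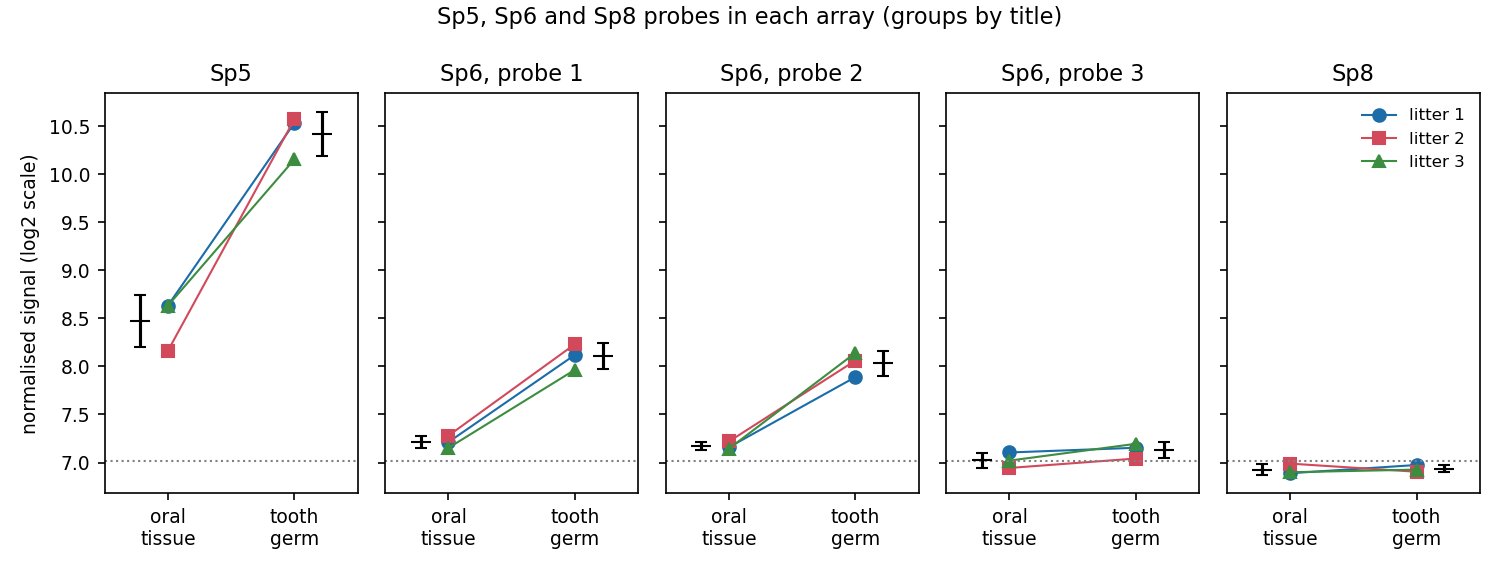
Normalised signal (log2 scale) of the 5 probes of Sp5, Sp6 and Sp8 in each of 6 arrays, with lines joining the oral tissue and tooth germ arrays of a litter, black marks for the mean ± SD (n = 3) and a dotted line at the median of all probes, 7.01. Sp5 and the brighter Sp6 probes have all tooth germ arrays above all oral tissue arrays, while the dimmest Sp6 probe and the Sp8 probe overlap.

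In the fit over all genes 2 of the 3 genes, Sp5 and Sp6, were called higher, against 2.39% of all genes, and their groups did not overlap, as was the case in this direction for 11.9% of all genes. Since the genes were chosen on this comparison, nothing is read from that count.

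Of the 6 remaining Sp factors 5 had a probe with 1 symbol (Sp2 was not analysed here). Of these 0 rose, 1 fell and 4 were not called, against 5.81% called over all genes, with a median difference of -0.0084. Sp9, which works in limb ectoderm and in the forebrain and is the closest relative of Sp8, read 7.21, 7.28 and 7.12 in oral tissue and 6.94, 6.97 and 6.91 in tooth germ. Every tooth germ value lay below every oral tissue value, and Sp9 fell by 0.26 (SE 0.0452, limma adjusted p = 0.00396), from a signal near the median of all probes. Without both libraries of litter 1 the difference was -0.26 with adjusted p = 0.0511. A dimmer Sp9 probe differed by -0.023 and was not called.

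Sp7, also called osterix, drives bone formation in osteoblasts and is also made in dental mesenchyme. It read 10.81, 11.63 and 10.40 in oral tissue and 11.67, 10.86 and 11.40 in tooth germ, with overlapping groups. Litter 2 ran opposite to the others, with the higher value in oral tissue, and the difference of 0.36 was not called (SE 0.265, limma adjusted p = 0.554). Without both libraries of litter 2 it was 0.93 with adjusted p = 0.00434, and without those of litter 1 or litter 3 it was 0.12 and 0.043 (adjusted p = 0.943 and 0.967). Without single libraries it lay between 0.089 (oral tissue library 3) and 0.70 (oral tissue library 2) and was not called. Sp1, Sp3 and Sp4, activators and repressors at many promoters, differed by -0.067, -0.0084 and 0.069 (limma, adjusted p = 0.788, 0.957 and 0.688). Their 95% intervals reached from -0.27 to 0.13, from -0.11 to 0.092 and from -0.080 to 0.22.

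The Klf factors share the zinc-finger design. Of 17 members 2 rose, 0 fell and 15 were not called, against 2.39% of all genes higher and 3.42% lower, and the median difference was -0.023. Klf9, a factor induced by glucocorticoid and thyroid hormones, read 8.50, 8.40 and 8.24 in oral tissue and 9.37, 9.25 and 9.13 in tooth germ. It rose by 0.87 (SE 0.0919, limma adjusted p = 1.37e-04), and no array of one tissue reached the other. Klf13, a close relative of Klf9, rose by 0.31 (SE 0.0729, adjusted p = 0.0266), and its second probe by 0.27. The Klf13 call was lost without any 1 of the 6 libraries and without any 1 of the 3 litters (adjusted p between 0.0516 and 0.178).

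Among the Klf genes that were not called, Klf16 differed by 0.28 (limma, adjusted p = 0.0532), and it passed in 5 of 15 alternatives, among them the litter block (adjusted p = 0.0217). Klf12 and Klf7 differed by -0.11 and -0.11 (adjusted p = 0.267 and 0.599). Klf4 and Klf5, factors of stratified epithelium that were picked for mention after their values were seen, differed by -0.077 and -0.10 (adjusted p = 0.767 and 0.773), both with overlapping groups.

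**Figure D2:**
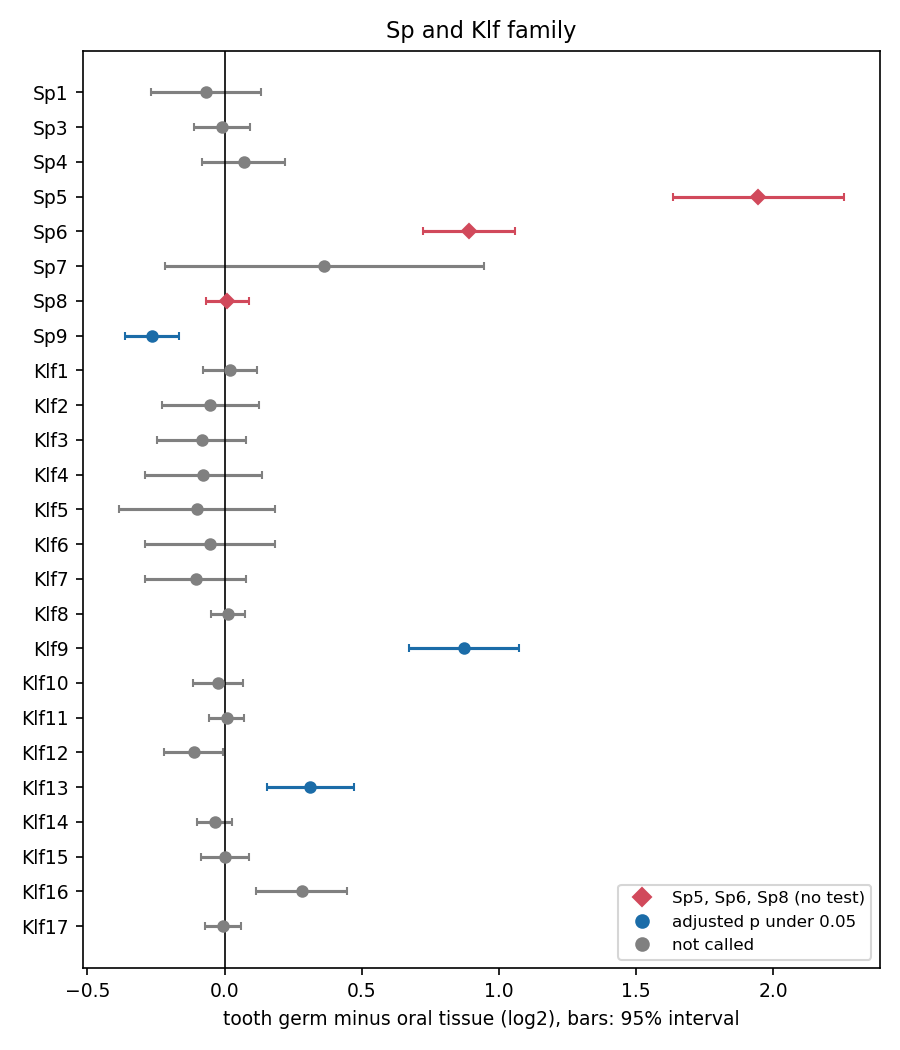
Difference between titled tooth germ and titled oral tissue (log2) for each Sp and Klf gene with a probe, with 95% intervals from the limma fit; red diamonds are Sp5, Sp6 and Sp8, blue points passed the test and grey points did not. Sp5 at 1.95 stands apart, Sp6 and Klf9 lie together at 0.89 and 0.87, and Sp9 is on the negative side at -0.26.

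Several Sp genes lie beside one another in the mouse genome, in the pairs Sp2 and Sp6 on chromosome 11, Sp4 and Sp8 on chromosome 12 and Sp7 and Sp1 on chromosome 15, with 0 protein-coding genes between the members of each pair in the RefSeq table. Sp3 and Sp9 on chromosome 2 have 1 between them, and Sp5 and Sp3 have 18. Of the nearest genes with a probe on each side of Sp5, Gad1, which makes the transmitter GABA, read 6.87, 6.81 and 6.89 in oral tissue and 7.62, 7.72 and 7.31 in tooth germ. It rose by 0.69 (SE 0.0847, limma adjusted p = 4.01e-04), and 2 of its other 3 probes also rose, by 0.50 and 0.40. Myo3b, Ubr3 and Erich2, the other neighbours of Sp5, differed by 0.019, 0.014 and 0.12 and were not called. Beside Sp6, Prr15l, Cdk5rap3, Scrn2 and Lrrc46 differed by 0.045, -0.21, 0.19 and -0.079, none of them called (limma, adjusted p between 0.247 and 0.666). Beside Sp8, the dynein gene Dnah11 rose by 0.39 (SE 0.0874, limma adjusted p = 0.0209), its dimmer probe differed by 0.050 and was not called, and Sp4, Abcb5 and Itgb8 were not called.

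Genes that respond to Wnt signals, the class to which Sp5 belongs, were examined next. Of 17 other Wnt target genes with a probe 1 rose, 1 fell and 15 did not pass, against 5.81% called over all genes, and their median difference was 0.053. Lef1, a DNA-binding partner of beta-catenin, read 7.57, 7.61 and 7.44 in oral tissue and 8.05, 8.07 and 7.67 in tooth germ. It rose by 0.39 (SE 0.103, limma adjusted p = 0.0483), and this call was lost without any 1 of 5 libraries (all but tooth germ library 3), without litter 1 or litter 2, and in 3 other alternatives. Over the alternatives the adjusted p of Lef1 lay between 0.00305 and 0.295, and its 3 dimmer probes were not called. Ccnd1, the cyclin D1 gene, fell by 0.38 (SE 0.0709, adjusted p = 0.00662), and without litter 1 its adjusted p was 0.143.

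The secreted or membrane Wnt feedback genes Apcdd1, Dkk4 and Rnf43 differed by -0.44, 0.23 and 0.14 and did not pass (limma, adjusted p = 0.0631, 0.101 and 0.108). With litter as a block Apcdd1 and Dkk4 passed (adjusted p = 0.00231 and 0.00717). Apcdd1 also passed without oral tissue library 3 (adjusted p = 0.0117) and without litter 3 (0.0343), and Dkk4 without oral tissue library 2 (0.0226) or tooth germ library 1 (0.0384). A dimmer Apcdd1 probe differed by -0.61 and was called in the fit over all probes (limma, adjusted p = 0.0494). Axin2, the most widely used reporter of Wnt activity, was picked for mention after its values were seen. It read 9.84, 9.99 and 9.88 in oral tissue and 10.10, 10.22 and 10.01 in tooth germ, so its groups did not overlap, but its difference of 0.21 was not called (adjusted p = 0.222).

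Wnt ligands, receptors and modulators moved in both directions. Among the 21 genes measured 4 rose, 2 fell and 15 did not pass, against 5.81% called over all genes, and the median difference was 0.010. Sostdc1, a secreted inhibitor of Wnt and BMP signals that limits tooth number, rose by 0.94 (SE 0.0913, limma adjusted p = 8.15e-05), and Lrp4, the receptor it binds, rose by 0.47 (adjusted p = 0.00552). The R-spondin gene Rspo3, whose product strengthens Wnt signals, rose by 0.73 (adjusted p = 3.46e-04), and the ligand gene Wnt10b rose by 0.37 (adjusted p = 0.00542). Tcf7l2, a Tcf factor, fell by 0.71 (adjusted p = 0.00143), and the R-spondin gene Rspo2 fell by 0.36 (adjusted p = 0.0327).

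Some of these calls depended on the libraries used. Lrp4 had adjusted p = 0.0713 without litter 2, and Wnt10b had 0.0641 without litter 1 and 0.0747 without litter 3. Rspo2 was lost without any of oral tissue libraries 1 and 2 and tooth germ libraries 1 and 3, and without litter 1 or 2 (adjusted p between 0.075 and 0.267). The dimmer probes of Lrp4, Wnt10b and Rspo2 were not called, and 2 of 5 dimmer probes of Tcf7l2 were. Wnt3, the ectodermal ligand gene, differed by -0.22 (adjusted p = 0.0823), and with litter as a block its adjusted p was 0.013. It also passed without oral tissue library 3 (0.00656) and without litter 3 (0.038). Rspo1 and Wnt7b differed by 0.16 and -0.29 (adjusted p = 0.0955 and 0.189). Rspo1, which has 1 probe, passed in the fit where all probes of a gene were averaged (adjusted p = 0.0391), with its difference unchanged at 0.16. Wnt7b passed without litter 3 (-0.48, adjusted p = 0.0302).

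The next list was drawn up for genes beside Sp6 and Sp8 in limb ridge, tooth and other appendage ectoderm. It also holds Msx1, named above as a gene of dental mesenchyme. Of 23 genes with a probe 9 rose, 1 fell and 13 did not pass, against 2.39% and 3.42% of all genes. The median difference was 0.12. Msx1 and Shh are among the 9 and were also picked as label checks. En1, a homeobox gene of ventral limb ectoderm and of the jaw, read 8.52, 8.76 and 8.60 in oral tissue and 9.69, 9.46 and 9.37 in tooth germ, and rose by 0.88 (SE 0.0997, limma adjusted p = 2.4e-04). Trp63, the master factor of stratified epithelium, rose by 1.01 (adjusted p = 4.09e-05), and the homeobox gene Dlx2 by 1.21 (adjusted p = 0.00132). A dimmer Trp63 probe differed by 0.063 and was not called, while the dimmer probes of En1 and Dlx2 also rose, by 0.39 and 0.63. The activin antagonist gene Fst rose by 0.73 (adjusted p = 0.0015), as did Msx1 and Shh given above and Wnt10b and Lef1.

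The FGF genes of this list split. Fgf8, a ridge and oral ectoderm ligand that depends on Sp8 in the limb, read 6.97, 7.02 and 6.96 in oral tissue and 7.16, 7.17 and 7.23 in tooth germ and rose by 0.20 (SE 0.0392, limma adjusted p = 0.00981), with adjusted p = 0.0796 without litter 1 and 0.124 without litter 3. Fgf9 fell by 0.24 (adjusted p = 0.0322). Of 9 omissions of a library or a litter, 8 ended this call (adjusted p between 0.0748 and 0.263), and only the omission of oral tissue library 2 kept it. The dimmer probes of Fgf8 and Fgf9 were not called. Dlx3 and Bmp4 were not called at 0.59 and 0.31 (adjusted p = 0.0705 and 0.104). Both passed with litter as a block (adjusted p = 0.00996 and 0.0434), without oral tissue library 2 (0.000924 and 0.0223) and without litter 2 (0.00385 and 0.0371).

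Products of the later enamel organ, the tissue in which Sp6 acts, listed together with the dentine gene Dspp, were nearly all at the low end of the signal. Of 8 genes 1 rose and 7 were not called, against 2.39% of all genes higher, and 7 lay on average under the median of all probes. Ambn, which encodes the enamel matrix protein ameloblastin, read 7.21, 7.78 and 7.40 in oral tissue and 8.25, 8.16 and 8.18 in tooth germ and rose by 0.73 (SE 0.117, limma adjusted p = 0.00248). Oral tissue library 2 was the highest of its group, and the groups did not overlap. Amtn and Dspp, genes of later enamel and dentine, differed by 0.041 and 0.029 (adjusted p = 0.481 and 0.677).

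Of 22 markers of surface epithelium with a probe 12 rose in titled tooth germ, 1 fell and 9 did not pass, against 2.39% and 3.42% of all genes, and the median of their differences was 0.42. The mean signal of the list lay between 9.07 and 9.18 in oral tissue and between 9.51 and 9.60 in tooth germ. The probes of Epcam and Perp stayed below 6.90 in all arrays, on a scale where the lowest value of any probe was 6.61. Krt17, Lamb3 and Trp63 had the largest differences, at 2.05, 1.07 and 1.01 (limma, adjusted p = 1.7e-05, 4.64e-05 and 4.09e-05), and Krt15 was the one that fell, by 0.39 (adjusted p = 0.0464). The part of epithelial content in the differences of Sp5 and Sp6 was not tested.

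Set beside these markers, Sp5 was exceeded by 1 of the 22 genes, Krt17, and the main Sp6 probe by 3, Krt17, Lamb3 and Trp63. As a second description, the median signal of the 22 markers was subtracted from each gene in each array. That median was 8.54, 8.57 and 8.41 in oral tissue and 9.12, 9.23 and 9.03 in tooth germ, a difference of 0.62. The median of the single-gene differences of the same markers was 0.42, so what remains after subtraction depends on the summary used. After subtraction Sp5 read 0.096, -0.41 and 0.22 in oral tissue and 1.41, 1.35 and 1.12 in tooth germ, and its difference was 1.32, with pair differences of 1.32, 1.76 and 0.90. The main Sp6 probe read -1.327, -1.294 and -1.259 against -1.002, -0.996 and -1.069, with pair differences of 0.32, 0.30 and 0.19 and a mean of 0.27. Before subtraction its difference was 0.89, and that of the next Sp6 probe was 0.86. The dimmest Sp6 probe differed by 0.11 and the mean of all 3 probes by 0.62. The marker median, which differed by 0.62, used only the brightest probe of each gene. It is therefore not a like measure to the mean of all Sp6 probes, and nothing is read from their likeness.

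Markers of other cell types are given beside 2.39% of all genes called higher and 3.42% called lower. Of 11 mesenchyme genes 1 rose and 3 fell (median -0.34), with differences of -0.90 for Zeb1, -0.78 for Twist2 and 0.75 for Prrx1 (limma, adjusted p = 5.93e-05, 3.16e-04 and 0.00364). Of 11 skeletal muscle genes 9 fell (median -1.69), led by Actc1, Mylpf and Acta1 at -2.52, -2.05 and -1.94. The mean muscle signal lay between 9.97 and 10.50 in oral tissue and between 8.79 and 8.996 in tooth germ. Of 8 genes each, 3 neuronal (Isl1, Nefm and Gap43, at -1.45, -1.19 and -1.10), 1 endothelial (Tek, -0.33, beside Emcn and Cldn5, not called at -0.27 and -0.21) and 6 macrophage genes fell, the last led by C1qc, Laptm5 and Mrc1 at -0.62, -0.58 and -0.55. The part of these cells in the differences of Sp5 and Sp6 was not tested.

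**Figure D3:**
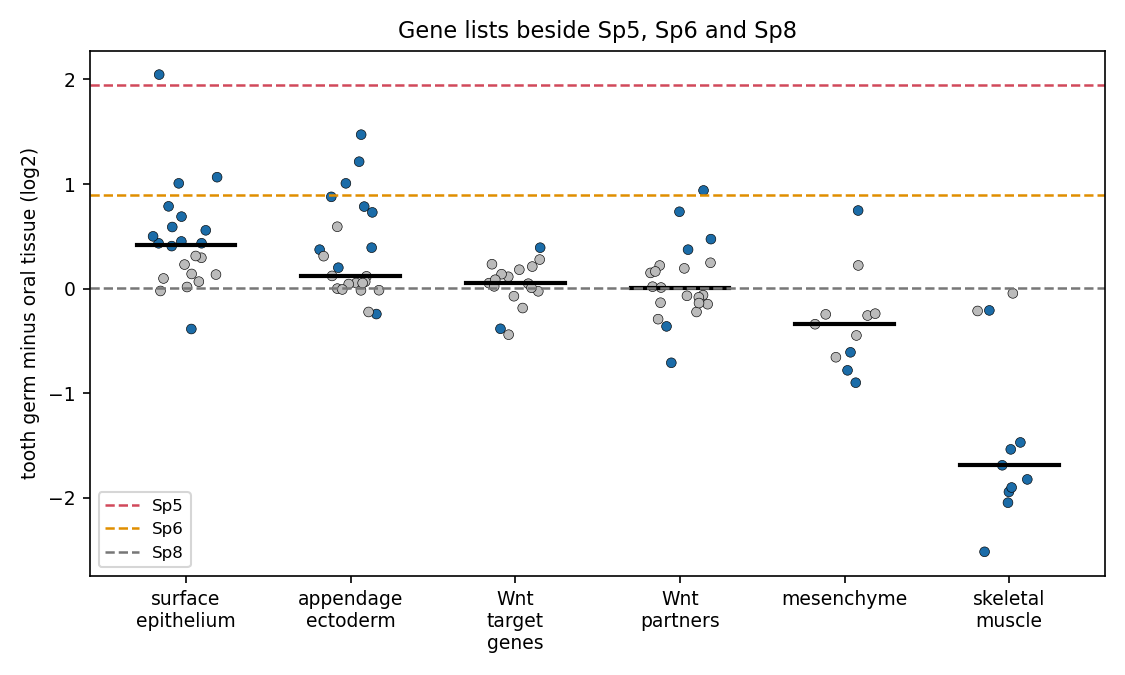
Differences between titled tooth germ and titled oral tissue (log2) of the genes of 6 lists, 1 point per gene, blue where the limma test was passed and grey where not, with black bars at the list medians and dashed lines at Sp5, Sp6 and Sp8. Sp5 at 1.95 lies above every point but Krt17, and the medians run from 0.42 for surface epithelium to -1.69 for skeletal muscle. The appendage ectoderm list also holds Msx1, a gene of dental mesenchyme.

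The genes whose profiles over the 6 arrays were nearest to each Sp gene were found by the root mean square distance after subtracting each gene's own mean, over 18051 genes with a standard symbol. Nearest to Sp5 were Tfap2b and Tfap2c, AP-2 factors of ectoderm and neural crest, and Foxf1, a forkhead factor. Their distances were 0.18, 0.23 and 0.23, against a median distance of 0.99 over all genes compared. A gene without a difference between the tissues lies far from Sp5 through the Sp5 difference alone. The median therefore largely restates that difference, and the same holds for Sp6 below. Tfap2b read 9.69, 9.69 and 9.77 in oral tissue and 11.73, 11.51 and 11.38 in tooth germ, without the dip of Sp5 in oral tissue library 2. Tfap2c shared the lower value of tooth germ library 3, at 11.54 against 12.03 and 12.02.

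Nearest to Sp6 were Stk32b, a serine and threonine kinase, Alox12e, a lipoxygenase of epidermis, and Fgf13, an FGF homologue that acts inside the cell, at distances of 0.054, 0.078 and 0.082 against a median of 0.46. Stk32b read 7.57, 7.51 and 7.44 in oral tissue and 8.46, 8.52 and 8.35 in tooth germ. These genes were picked for likeness to the main Sp6 probe, whose order of arrays the next Sp6 probe did not share. The genes nearest to Sp8 were Ceacam5, Slc13a1 and B4galnt2, whose signals all lay between 6.78 and 7.03, so that likeness is one between dim probes.

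**Figure D4:**
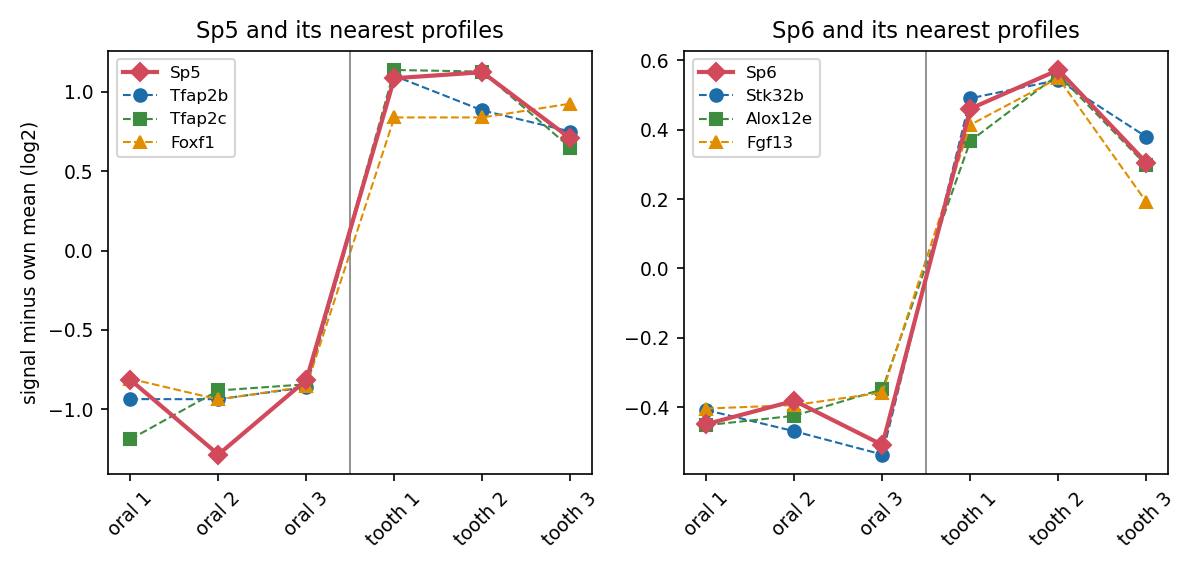
Signal minus each gene's own mean (log2) in the 6 arrays for Sp5 and Sp6 and, for each, the 3 genes of nearest profile. Both panels step up from the oral tissue to the tooth germ arrays, and the profile of Sp6 follows that of Stk32b within a root mean square of 0.054.

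Single arrays deviated from their group means as follows. In oral tissue library 2 Sp5 was 0.31 below its group mean (-0.31), while the main Sp6 probe was above its own by 0.065 and the mean of the epithelial markers by 0.063. In tooth germ library 3 Sp5 was at -0.27 from its group mean and the main Sp6 probe at -0.14. The next Sp6 probe, at 8.14 against a mean of 8.03, was above its own, as was the mean of the epithelial markers by 0.034. The median of the same markers went the other way in that library, at 9.03 against a group mean of 9.13. With 3 arrays per tissue these deviations are single readings and were not tested.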

How the data were processed

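The deposited table holds 1 log2-scale signal per probe for 6 arrays (45281 probes). The tool was lumi 2.8.0, per the submitters' processing notes; its transformation and background correction are not given in the sources used here, so the log2 scale may be a variance-stabilised form. Sorted columns differed by at most 0.000827, so the authors' values were already quantile normalized, and no normalization was added. Detection p-values were not used here.

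Probes were named from the platform annotation (34885 with 1 symbol, 18 with several, 10378 with none), and the brightest probe per gene was kept. Of 19057 genes, 18992 matched the RefSeq table (GRCm38.p6) by Entrez identifier. The test was limma 3.58.1 under R 4.3.3 between titled groups (lmFit, eBayes with a trend, two-sided, 4 residual degrees of freedom), with Benjamini-Hochberg adjustment over all genes and calls at an adjusted p under 0.05. Same-numbered arrays come from 1 litter per the labels; deviations from group means correlated at 0.413, 0.233 and 0.266 for these pairs and between -0.267 and -0.0724 otherwise. The litter block (2 residual degrees of freedom) was an alternative.

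The members and lists were chosen with earlier results of these data known. The text names the 3 members, all other Sp genes, called members of the Klf, Wnt and appendage lists with up to 3 uncalled of smallest p, up to 3 of the largest difference in the enamel and cell type lists, label checks, nearest profiles and the nearest 2 neighbours on each side. The test was tested on simulated data with independent noise, where changes of 0.5, 1 and 2 (log2) were added to genes above the median gene level. It recovered 61.2%, 92.5% and 100% of these, with 10 false calls. Dimmer genes were not covered. Of the members, Sp5 and Sp8 matched the RefSeq promoter table. No protein sequences were used here.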

Additional observations from a re-analysis of the deposited data

How the results depend on the processing

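The alternatives were the litter block, the mean of all probes, median centring, a filter at the upper quartile, no variance trend, robust shrinkage, and leaving out each library or litter. Over omissions Sp5 lay between 1.71 and 2.16 and Sp6 between 0.83 and 0.96. Sp6 was 0.62 with all probes averaged and fell below the filter with Sp8. The litter block, the filter, the variance trend and robust shrinkage cannot change the difference of a gene, and Sp5 has a single probe. Median centring moved no array by more than 0.0065. These settings therefore say nothing on the direction of Sp5. The Sp8 difference lay between -0.029 and 0.057 over omissions. Beside the epithelial markers Sp5 gave 1.11 to 1.54 and the main Sp6 probe 0.24 to 0.31 over omissions. The count of all genes called was 1693 with the replicate block, sharing 1105 of the 1107, and 549 to 1025 over omissions. Over omissions the Sp and Klf lists held 1 to 3 called genes, the Wnt lists 4 to 10 and the appendage and enamel lists 7 to 12; with the filter, which tests fewer genes, both the Wnt and the appendage and enamel lists held 5. With the replicate block these 3 sets held 4, 11 and 14. Uncalled differences near 0 changed sign: over omissions Sp1 ran from -0.14 to 0.063, Sp3 from -0.043 to 0.020 and Sp4 from -0.018 to 0.18, and Sp3 was 0.0052 with probes averaged. The causes were not tested. The Sp8 probe lay below the median of all probes and the dimmest Sp6 probe near it, and the part of background in their differences was not tested.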
